A study of Mus musculus with 9 samples.

Results

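The genes described are 10 transcripts of neutrophils and their precursors, measured in mouse dendritic cell cultures grown from bone marrow progenitors. They are Mpo, Elane, Prtn3 and Ctsg of the azurophil granule, Camp, Ltf and Ngp of the later specific granule, the cytosolic proteins S100a8 and S100a9, and Csf3r, the receptor for granulocyte colony-stimulating factor (G-CSF). They were chosen by name, and each had 1 probe set on the Affymetrix array that named no other gene, which gave 10 of the 19938 genes measured. The 9 arrays form 3 groups of 3. The first is JmjD2d-knockdown dendritic cells after LPS, which carried an shRNA against JmjD2d in the retroviral vector pSir-delta U6CHisD and had been selected in 2 mM histidinol. The others are wild-type dendritic cells after LPS and wild-type dendritic cells left unstimulated, both untransduced. LPS (bacterial lipopolysaccharide, which acts through Toll-like receptor 4) was given at 100 ng/ml for 4 h. Before that, all groups shared a culture scheme: progenitor growth in IL-3, IL-6 and SCF (each 20 ng/ml), then 8 days of differentiation in GM-CSF (a supernatant at 4%), to which SCF (5 ng/ml) was added for the first 4 days. No array of a control hairpin or of unstimulated knockdown cells was analysed here, so loss of JmjD2d cannot be told apart from transduction and selection.

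Neutrophils build their granules in sequence. Promyelocytes make the azurophil proteins under factors such as C/EBPα, PU.1 and Myb, and myelocytes then make the specific granule proteins, a step that needs C/EBPε. S100A8 and S100A9 form the heterodimer calprotectin, which fills the neutrophil cytosol, binds calcium and zinc and is also made by monocytes. G-CSF, acting through its receptor, drives granulocyte production and release. GM-CSF cultures of bone marrow are known to hold granulocytes beside dendritic cells and macrophages. In RNA from a whole culture, fewer cells of a type and less RNA per cell cannot be told apart.

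The promoters of 5 of the genes are shown because these genes span the patterns described here: Ngp, Ltf and S100a9 tracked the replicate number, and Mpo and Csf3r tracked the group. Each run holds the 250 bases before the gene's start in RefSeq, assembly GRCm38.p6, written 5′ to 3′ on the gene's strand. The windows are chr9:110419558-110419807 (plus strand) for Ngp, chr9:111019042-111019291 (plus strand) for Ltf, chr3:90695722-90695971 (minus strand) for S100a9, chr11:87793534-87793783 (plus strand) for Mpo and chr4:126024409-126024658 (plus strand) for Csf3r. Capitals mark GCAAT, a C/EBP half-site, and AGGAAG, an ETS core of the kind bound by PU.1, on either strand (ATTGC and CTTCCT are their reverse complements).
Ngp: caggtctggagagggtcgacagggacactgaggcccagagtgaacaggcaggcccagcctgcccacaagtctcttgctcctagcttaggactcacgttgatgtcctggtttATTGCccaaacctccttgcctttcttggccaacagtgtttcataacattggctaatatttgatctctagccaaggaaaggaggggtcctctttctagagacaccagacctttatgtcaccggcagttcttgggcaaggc
Ltf: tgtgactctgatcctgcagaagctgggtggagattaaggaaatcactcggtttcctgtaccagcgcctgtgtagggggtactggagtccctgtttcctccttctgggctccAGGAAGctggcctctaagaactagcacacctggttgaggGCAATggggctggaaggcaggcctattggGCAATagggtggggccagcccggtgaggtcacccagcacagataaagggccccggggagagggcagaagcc
S100a9: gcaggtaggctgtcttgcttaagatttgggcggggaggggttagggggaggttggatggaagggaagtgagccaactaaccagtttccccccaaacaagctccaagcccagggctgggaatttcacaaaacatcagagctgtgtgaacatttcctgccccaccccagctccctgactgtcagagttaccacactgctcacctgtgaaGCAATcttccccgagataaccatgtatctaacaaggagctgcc
Mpo: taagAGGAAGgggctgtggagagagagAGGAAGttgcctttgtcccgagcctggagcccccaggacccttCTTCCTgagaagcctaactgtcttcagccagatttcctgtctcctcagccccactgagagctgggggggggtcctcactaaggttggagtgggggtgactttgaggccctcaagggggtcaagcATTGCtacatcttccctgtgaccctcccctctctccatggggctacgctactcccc
Csf3r: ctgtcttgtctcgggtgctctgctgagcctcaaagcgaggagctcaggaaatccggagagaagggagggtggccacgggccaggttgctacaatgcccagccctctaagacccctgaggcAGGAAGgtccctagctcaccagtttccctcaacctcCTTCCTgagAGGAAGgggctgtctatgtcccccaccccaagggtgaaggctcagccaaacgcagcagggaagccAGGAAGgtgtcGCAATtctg

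In these windows Ltf held GCAAT at 100 and 71 bases before the start, S100a9 at 43 bases and Csf3r at 9 bases. Ngp and Mpo held it on the opposite strand, at 139 and 56 bases. Csf3r held AGGAAG at 4 places (130, 94, 85 and 20 bases before the start). All 10 genes had a promoter in the table. GCAAT occurred in 8 of the 10 (not in Prtn3 or Ctsg) and in 23.1% of all 32851 promoters. AGGAAG occurred in 8 of the 10 (not in Ngp or S100a9) and in 29.5% of all promoters. TTCNNNGAA, the spacing of a STAT site, occurred in Ctsg alone among the 10 and in 7.02% of all promoters. The motif letters were chosen after values or sequences were seen, so these counts are no test of enrichment. No motif contains another, and a match is a description of letters, not of a bound site. In the RefSeq table no gene starts between Prtn3 and Elane, neighbours on chromosome 10, or between S100a8 and S100a9, neighbours on chromosome 3. Camp, Ltf and Ngp all lie on chromosome 9.

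All values are log2 values made by RMA, in which 1 unit is a factor of 2 in signal, and levels of different probe sets were not compared. Kdm4d, which encodes JmjD2d, had 7.43, 7.11 and 7.40 in knockdown LPS cells (replicates 1, 2 and 3), 7.79, 7.54 and 7.74 in wild-type LPS cells, and 7.24, 7.65 and 7.62 in unstimulated wild-type cells. The knockdown was lower than wild-type LPS in 3 of 3 pairs of the same replicate number, by 0.37 (SE 0.13), a difference that did not pass the test (limma adjusted p = 0.278). Array medians lay between 7.22 and 7.31, and arrays of a group correlated by 0.985 to 0.997. Itgax (CD11c), a dendritic cell marker, lay between 12.3 and 13.3 on all 9 arrays. Of the same marker list, Flt3 lay between 6.49 and 7.05, below the array medians, and Zbtb46 between 7.32 and 8.27. Over 14 dendritic cell markers the mean log2 value was 8.86 to 10.02 on knockdown LPS arrays, 10.5 to 11.2 on wild-type LPS arrays and 9.87 to 10.6 on unstimulated arrays. Between knockdown and wild-type LPS, Cd86 and Fscn1 were the 2 that passed the test without pairing, both lower in the knockdown (limma adjusted p = 0.00929 and 0.0476). Over all genes 0.361% passed as lower in that test. With the replicate number as a block (paired fit), 9 of the 14 were lower in the knockdown and 0 higher, against 1.24% of all genes lower and 1.51% higher. The median difference of the 14 was -1.73. Over 10 macrophage and monocyte markers the mean log2 value was 10.3 to 10.9 on knockdown LPS arrays, 10.6 to 11.1 on wild-type LPS arrays and 10.6 to 11.2 on unstimulated arrays. Over 13 mast cell and basophil markers the mean was highest in wild-type LPS cells without overlap. It was 6.34 to 6.66 on knockdown LPS arrays, 6.93 to 7.26 on wild-type LPS arrays and 6.65 to 6.85 on unstimulated arrays. The list as a whole did not share the rise over unstimulated cells. Its median difference was 0.07, beside 0.04 over all genes, and 1 of the 13 passed as higher (Hdc). Kit had 10.14, 9.73 and 9.46 in wild-type LPS cells, below its 10.89, 10.996 and 10.52 in unstimulated cells. Of these 13, Hdc, the histidine decarboxylase that makes histamine, passed the test after LPS in wild-type cells (3.23, SE 0.52, limma adjusted p = 0.00758), and Cpa3 (-1.88), Gata2 (-0.87) and Kit (-1.73) were lower in knockdown than in wild-type cells after LPS by the paired fit but not by the model without pairing. The defining receptor subunits Fcer1a (4.76 to 5.19) and Ms4a2 (4.95 to 5.06) lay well below the array medians on all 9 arrays. At such low values their narrow range is no sign of a steady presence of these cells. The part of these cell types in the results on the granule genes was not tested.

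The 10 genes fell into 2 patterns. Mpo, Elane, Prtn3, Ctsg and Csf3r differed more between the groups than between replicate numbers, with their highest mean in wild-type LPS cells. For Elane the groups held 44.8% of the variation. Camp, Ltf, Ngp, S100a8 and S100a9 differed mainly by replicate number: on the arrays numbered 2 they were lower than on the arrays numbered 1 and 3 of the same group, in all 3 groups. After LPS in wild-type cells only Csf3r among the 10 rose past the threshold, and between knockdown and wild-type cells after LPS none of the 10 changed in the model without pairing.

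**Figure D1:**
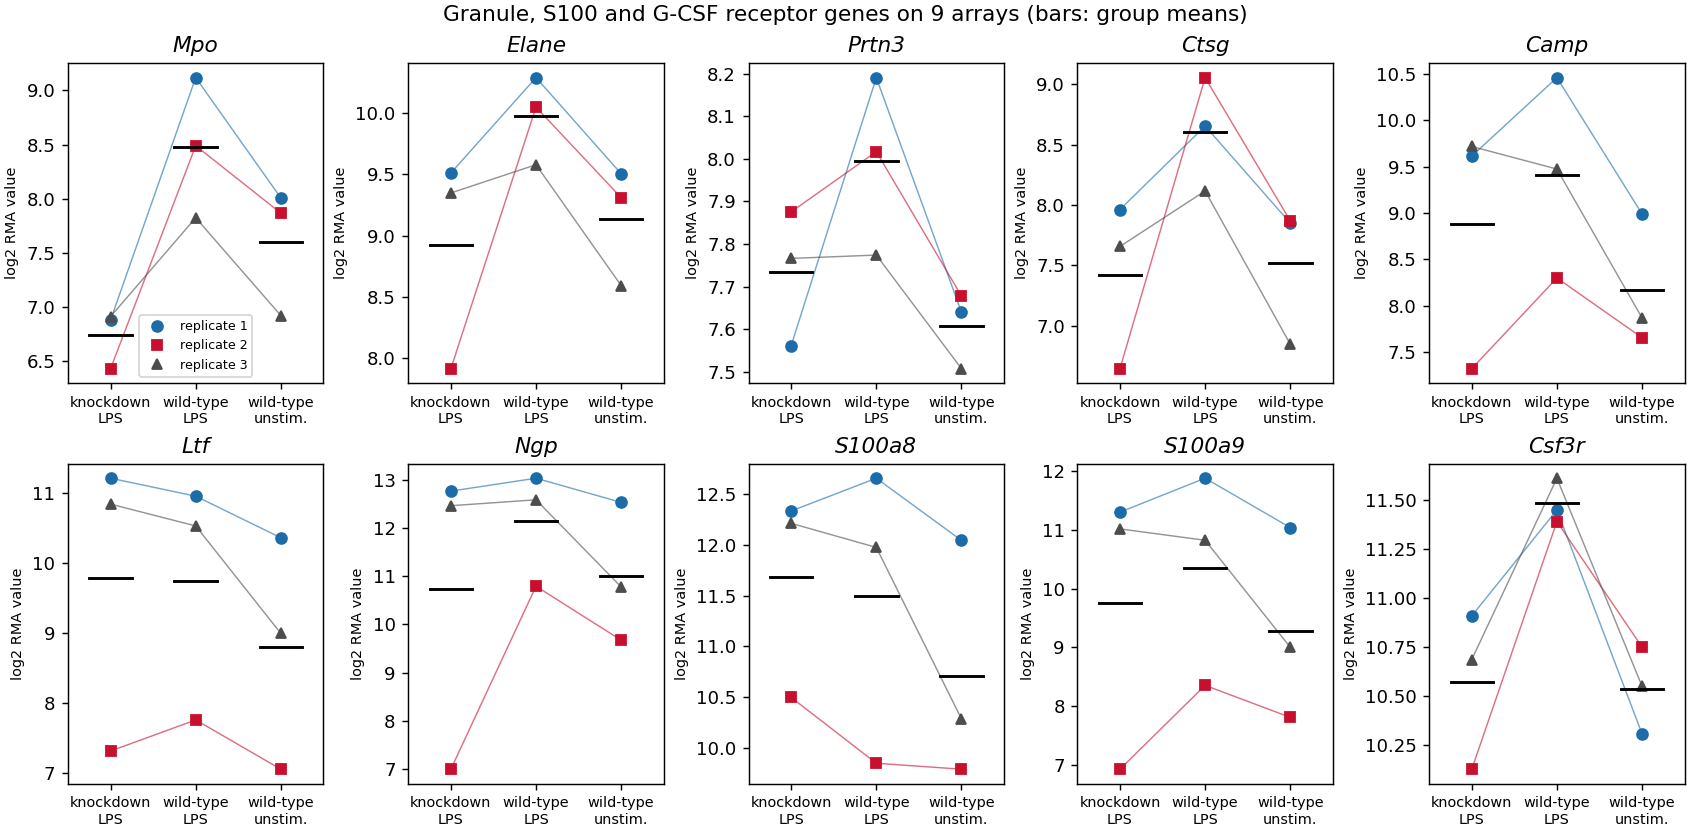
Log2 RMA values (y axis) of the 10 genes in knockdown LPS, wild-type LPS and wild-type unstimulated cells (x axis), with 3 arrays per group. Points are single arrays, lines join arrays of the same replicate number, and black bars are group means. In Camp, Ltf, Ngp, S100a8 and S100a9 the red squares of replicate 2 lie lowest in all 3 groups.

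Myeloperoxidase, encoded by Mpo, makes hypochlorous acid from hydrogen peroxide and chloride. Mpo had log2 values of 6.88, 6.43 and 6.91 in knockdown LPS cells, 9.12, 8.49 and 7.82 in wild-type LPS cells, and 8.01, 7.87 and 6.92 in unstimulated wild-type cells. All 3 knockdown arrays were below every wild-type array, narrowly so for unstimulated replicate 3, while the wild-type groups overlapped. The mean was 6.74 ± 0.27 in knockdown LPS cells and 8.48 ± 0.65 in wild-type LPS cells (SD, n = 3 each). The difference was -1.74 (SE 0.37, 95% confidence interval -2.59 to -0.89, limma adjusted p = 0.0825). It passed when the replicate number was a block in the model (paired fit, adjusted p = 0.032). Wild-type LPS minus unstimulated cells gave 0.88 (SE 0.37, interval 0.03 to 1.73, adjusted p = 0.176), and knockdown LPS minus unstimulated cells gave -0.86 (SE 0.37, adjusted p = 0.211).

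Elane encodes neutrophil elastase, a serine protease that degrades matrix and bacterial proteins. Its log2 values were 9.51, 7.91 and 9.35 in knockdown LPS cells, 10.29, 10.05 and 9.58 in wild-type LPS cells, and 9.51, 9.31 and 8.59 in unstimulated cells. Every wild-type LPS array was above every array of the other groups. Knockdown minus wild-type after LPS was -1.05 (SE 0.43, interval -2.04 to -0.07, limma adjusted p = 0.345), and wild-type LPS minus unstimulated was 0.84 (SE 0.43, interval -0.15 to 1.82, adjusted p = 0.256). Within replicate numbers the knockdown difference was -0.78, -2.14 and -0.23, so replicate 2 had the widest gap.

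Ctsg, which encodes the serine protease cathepsin G, had nearly the same shape. Its log2 values were 7.96, 6.65 and 7.66 in knockdown LPS cells, 8.65, 9.05 and 8.12 in wild-type LPS cells, and 7.85, 7.87 and 6.85 in unstimulated cells. Again no array of the other groups reached the wild-type LPS arrays. Knockdown minus wild-type after LPS was -1.18 (SE 0.41, interval -2.12 to -0.25, limma adjusted p = 0.26), and wild-type LPS minus unstimulated was 1.08 (SE 0.41, interval 0.14 to 2.02, adjusted p = 0.136). Replicate 2 again had the widest knockdown gap, -2.41, against -0.69 in replicate 1 and -0.46 in replicate 3.

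Prtn3, which encodes proteinase 3, the autoantigen of some forms of vasculitis, had the narrowest range of the 10 over the 9 arrays. Its log2 values were 7.56, 7.88 and 7.77 in knockdown LPS cells, 8.19, 8.02 and 7.77 in wild-type LPS cells, and 7.64, 7.68 and 7.51 in unstimulated cells. The wild-type LPS arrays lay above the unstimulated ones, by 0.38 (SE 0.12, interval 0.11 to 0.66, limma adjusted p = 0.0812), and overlapped the knockdown arrays, from which the difference was -0.26 (SE 0.12, adjusted p = 0.415).

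Camp encodes the cathelicidin precursor, an antimicrobial peptide stored in specific granules. Its log2 values were 9.61, 7.32 and 9.72 in knockdown LPS cells, 10.46, 8.30 and 9.47 in wild-type LPS cells, and 8.99, 7.65 and 7.87 in unstimulated cells. The array numbered 2 was lowest in each group. Its difference from the mean of the arrays numbered 1 and 3 was -2.34 in knockdown LPS, -1.67 in wild-type LPS and -0.77 in unstimulated cells. The knockdown difference after LPS was -0.53 (SE 0.75, limma adjusted p = 0.806), and wild-type LPS minus unstimulated was 1.24 (SE 0.75, adjusted p = 0.33).

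Ltf encodes lactoferrin, an iron-binding protein. Its log2 values were 11.21, 7.32 and 10.84 in knockdown LPS cells, 10.95, 7.76 and 10.53 in wild-type LPS cells, and 10.36, 7.06 and 8.99 in unstimulated cells. The knockdown and wild-type LPS arrays interleaved, while the arrays numbered 2 stood apart from all others. Their difference from the mean of the other 2 arrays was -3.71 in knockdown LPS, -2.98 in wild-type LPS and -2.62 in unstimulated cells. The difference between knockdown and wild-type after LPS was 0.04, with an interval of -2.92 to 3.00 (SE 1.29, limma adjusted p = 0.992). In the paired fit, which takes out the replicate number, the interval was -0.61 to 0.69 (SE 0.27, adjusted p = 0.958). Wild-type LPS minus unstimulated was 0.94 (SE 1.29, adjusted p = 0.658). In the paired fit its interval was 0.29 to 1.59 (SE 0.27, adjusted p = 0.0647).

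Ngp encodes neutrophilic granule protein, a mouse granule protein related to cathelicidins and cystatins, and it had the largest range of the 10. Its log2 values were 12.77, 6.996 and 12.47 in knockdown LPS cells, 13.04, 10.79 and 12.59 in wild-type LPS cells, and 12.53, 9.67 and 10.78 in unstimulated cells. Replicate 2 minus the mean of replicates 1 and 3 was -5.62 in knockdown LPS cells, -2.02 in wild-type LPS cells and -1.98 in unstimulated cells. The knockdown difference after LPS averaged -1.40 (SE 1.501, interval -4.84 to 2.04, limma adjusted p = 0.737), made of -3.80 in replicate 2 and of -0.27 and -0.12 in replicates 1 and 3. Without the arrays numbered 2 it was -0.20.

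S100a8 had log2 values of 12.33, 10.50 and 12.21 in knockdown LPS cells, 12.65, 9.85 and 11.97 in wild-type LPS cells, and 12.04, 9.79 and 10.29 in unstimulated cells. Its heterodimer partner S100a9 had 11.30, 6.93 and 11.01 in knockdown LPS cells, 11.87, 8.36 and 10.82 in wild-type LPS cells, and 11.04, 7.81 and 9.004 in unstimulated cells. Both were lowest on the array numbered 2 of every group, and its difference from the mean of the other 2 arrays was, for S100a9, -4.22 in knockdown LPS, -2.99 in wild-type LPS and -2.21 in unstimulated cells. For S100a8 it was -1.77 in knockdown LPS, -2.46 in wild-type LPS and -1.37 in unstimulated cells. The knockdown difference after LPS was 0.19 for S100a8 (SE 0.86, limma adjusted p = 0.943) and -0.60 for S100a9 (SE 1.38, adjusted p = 0.882). Wild-type LPS minus unstimulated was 0.79 for S100a8 (adjusted p = 0.578) and 1.07 for S100a9 (adjusted p = 0.64).

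Csf3r, the G-CSF receptor, varied little between replicates of the wild-type groups. It had log2 values of 10.91, 10.13 and 10.69 in knockdown LPS cells, 11.45, 11.39 and 11.61 in wild-type LPS cells, and 10.31, 10.75 and 10.55 in unstimulated cells. The wild-type LPS arrays lay above all others, and the knockdown arrays overlapped the unstimulated ones. Csf3r rose by 0.95 after LPS in wild-type cells, 1.93-fold (SE 0.20, interval 0.50 to 1.39, limma adjusted p = 0.0194), with a mean of 11.48 ± 0.11 in wild-type LPS cells and 10.54 ± 0.22 in unstimulated cells (SD, n = 3 each). This call was lost without wild-type LPS replicate 1 or 3 or unstimulated replicate 1 or 3 (differences 0.96, 0.88, 0.83 and 0.95, adjusted p = 0.065, 0.0818, 0.0769 and 0.0678). Knockdown minus wild-type after LPS was -0.91 (SE 0.20, interval -1.36 to -0.46), lower in 3 of 3 pairs, and did not pass (adjusted p = 0.0836, and 0.0764 in the paired fit). Knockdown LPS minus unstimulated cells gave 0.04 (SE 0.20, interval -0.41 to 0.49, adjusted p = 0.961).

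Between wild-type LPS and unstimulated cells, 1 of the 10 genes passed the adjusted test (Csf3r, higher), where 10.9% of all genes passed in either direction and 3.99% passed as higher. At an unadjusted p under 0.05, 4 of the 10 were higher (Mpo, Prtn3, Ctsg and Csf3r), against 10.3% of all genes. All 10 differences were positive, as were 59.7% of all genes. Each of the 10 was also positive in 3 of 3 pairs of the same number, for which no share over all genes is given here. The groups did not overlap, with LPS above, for 4 of the 10 (Elane, Prtn3, Ctsg and Csf3r), against 12.8% of all genes. The median difference was 0.94 over the 10 genes, 0.86 over the 4 azurophil genes and 1.14 over the 3 specific granule genes, beside 0.04 over all genes.

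Between knockdown and wild-type cells after LPS, which shares the wild-type LPS arrays with that comparison, 0 of the 10 genes passed limma's adjusted test, where 0.762% of all genes passed. At an unadjusted p under 0.05, 4 of the 10 were lower (Mpo, Elane, Ctsg and Csf3r) and 0 higher, against 5.79% of all genes lower and 7.32% higher. The difference was positive for 2 of the 10 (Ltf and S100a8) and for 40.7% of all genes. Mpo, Elane, Ctsg and Csf3r also had knockdown arrays wholly below the wild-type LPS arrays, against 8.38% of all genes. In the paired fit 1 of the 10 passed (Mpo, lower), where 2.75% of all genes passed and 1.24% passed as lower. The median difference was -0.76 over the 10 genes, -1.12 over the azurophil genes, -0.53 over the specific granule genes and -0.21 over S100a8 and S100a9, beside -0.03 over all genes.

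Between knockdown LPS and unstimulated wild-type cells, which differ in both treatment and transduction and share arrays with the other comparisons, 0 of the 10 genes passed limma's adjusted test, where 10.9% of all genes passed. At an unadjusted p under 0.05 Mpo was the only 1 of the 10 to differ, against 23.1% of all genes, and it was lower, as were 13.8%. Its knockdown arrays lay wholly below the unstimulated ones, as they did for 15% of all genes. The difference was positive for 6 of the 10 genes and for 54.4% of all genes. The median over the 10 genes was 0.08, beside 0.01 over all genes. The azurophil genes had a median of -0.16 and the specific granule genes one of 0.71.

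**Figure D2:**
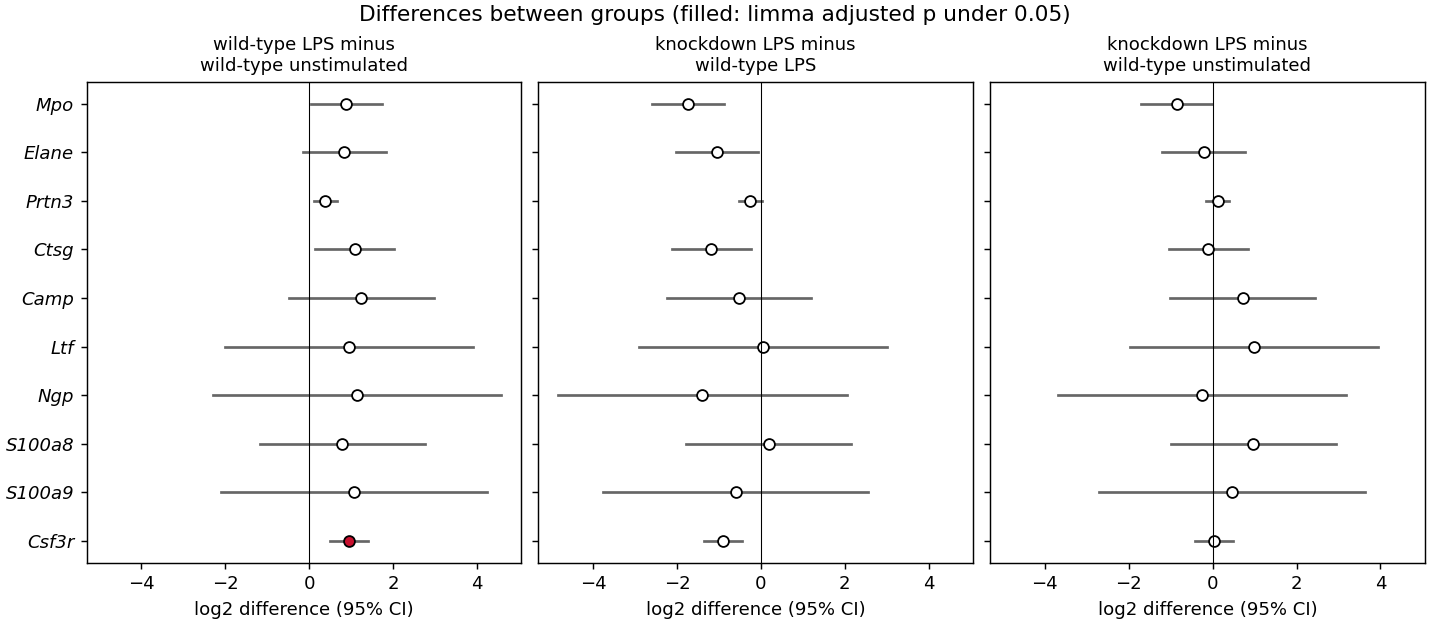
Log2 difference (x axis) of each of the 10 genes (rows) in the 3 comparisons (panels), with 95% confidence intervals from the limma model. Filled points passed an adjusted p under 0.05, which only Csf3r did, at 0.95 in the wild-type LPS comparison. The intervals, from the model without pairing, are widest for Ltf, Ngp, S100a8 and S100a9 in every panel.

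The share of each gene's variation over the 9 arrays that lay between groups and between replicate numbers was taken from its sum of squares. Groups held 79.3% for Csf3r, 72.9% for Mpo, 60% for Prtn3, 55.6% for Ctsg and 44.8% for Elane. Numbers held 88.6% for Ltf, 84.9% for S100a9, 75% for S100a8, 68.8% for Ngp and 61.5% for Camp, and 2.7% to 20% for the other 5 genes. All 4 azurophil genes are in the first set, and all 3 specific granule genes are in the second together with both S100 genes. Over 50% of the variation lay between numbers for 5 of the 10 genes, against 8.68% of all genes with any variation. In an F test of the number beside the group, 1 of the 10 passed over all genes (Ltf, limma adjusted p = 0.0266), where 0.1% of all genes passed (20 of 19938). S100a9 (adjusted p = 0.078), S100a8 (0.0947), Camp (0.157) and Ngp (0.205) did not. With the number as a block, the interval of knockdown minus wild-type after LPS was -1.38 to 0.33 for Camp, -3.30 to 0.51 for Ngp, -0.61 to 0.98 for S100a8 and -1.70 to 0.50 for S100a9. For wild-type LPS minus unstimulated, the same fit gave 0.38 to 2.09 for Camp (adjusted p = 0.0653) and -0.76 to 3.05 for Ngp (0.388). It gave -0.008 to 1.58 for S100a8 (0.177) and -0.04 to 2.17 for S100a9 (0.187). What a number marks is not stated in the labels.

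**Figure D3:**
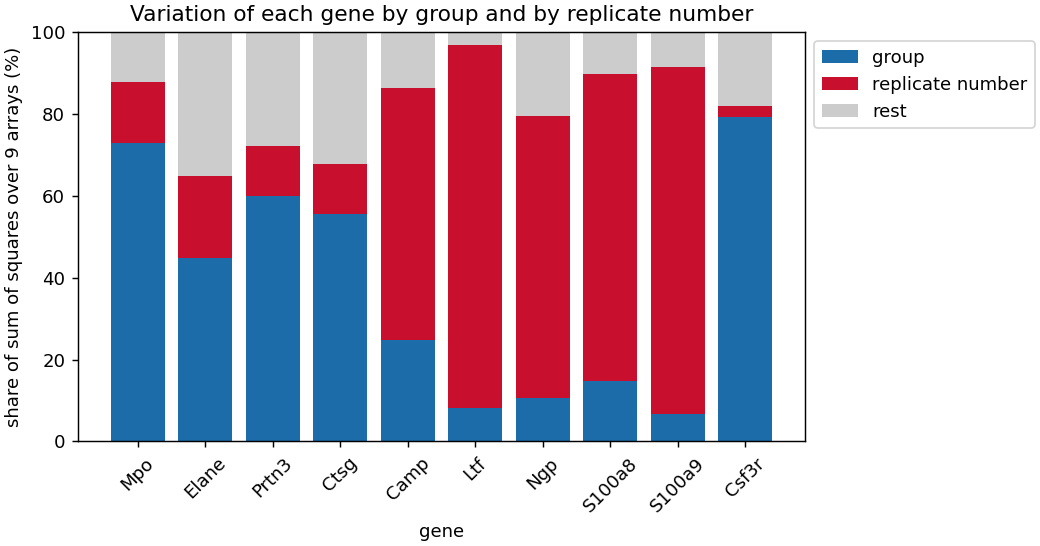
Share in percent (y axis) of each gene's sum of squares over the 9 arrays that lay between groups (blue), between replicate numbers (red) and in the rest (grey), for the 10 genes (x axis). Groups hold the largest share for Mpo, Elane, Prtn3, Ctsg and Csf3r, and numbers for Camp, Ltf, Ngp, S100a8 and S100a9.

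The array numbered 2 was the lowest of its group in all 3 groups for the same 5 genes, against 6.65% of all genes. By group, it was the lowest for 9 of the 10 genes in knockdown LPS cells (43.2% of all genes), 6 in wild-type LPS cells (46.6% of all genes) and 5 in unstimulated cells (30.3% of all genes). In the knockdown the exception was Prtn3. Some markers of other cell types were also lowest there in all 3 groups. These were 5 of 14 dendritic cell markers (35.7%) and 2 of 10 macrophage and monocyte markers (20%). The 2 were the complement genes C1qa and C1qb, with number shares of 82.2% and 64.8%. In the same list Cd68 (share 50.7%) was highest on the arrays numbered 2 in all 3 groups, and Adgre1 (share 41.1%) was lowest there in 0 groups. The number held over 50% of the variation for 3 of 7 eosinophil markers, and the array numbered 2 was lowest in all 3 groups for 2 of the 7. The part of these cell types in the replicate pattern was not tested. The arrays numbered 2 were not low for every neutrophil gene. Of the 6 mature neutrophil markers outside the 10, 3 were lowest there in all 3 groups (Ly6g, Retnlg and Padi4). Retnlg, a resistin-like neutrophil product, had 7.72, 6.52 and 7.44 in knockdown LPS cells, 9.99, 6.57 and 8.06 in wild-type LPS cells, and 8.93, 6.47 and 6.91 in unstimulated cells. Mmp9, the gelatinase of tertiary granules, had 8.99, 7.52 and 9.21 in knockdown LPS cells, but 9.93, 10.86 and 10.30 in wild-type LPS cells and 9.56, 11.12 and 9.83 in unstimulated cells, where replicate 2 was the highest. Cxcr2, a chemokine receptor that directs neutrophils out of the marrow, was highest on replicate 2 in the knockdown alone (8.97, against 7.05 and 7.202).

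Over 12 mature neutrophil markers, 6 of them among the 10 genes, the mean log2 value was 8.13 to 9.93 on knockdown LPS arrays, 8.83 to 10.5 on wild-type LPS arrays and 8.59 to 10.02 on unstimulated arrays. Over 10 promyelocyte and precursor markers, 4 of them among the 10 genes, it was 7.36 to 8.18 on knockdown LPS arrays, 8.24 to 8.79 on wild-type LPS arrays and 7.53 to 8.12 on unstimulated arrays, without overlap between wild-type LPS and the others. Over the 6 of these markers outside the 10 genes the groups overlapped, at 7.45 to 8.33 on knockdown LPS arrays, 7.86 to 8.61 on wild-type LPS arrays and 7.56 to 8.03 on unstimulated arrays.

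Taken within replicate numbers, wild-type LPS minus unstimulated was 0.62 to 1.11 for Mpo, 0.74 to 0.99 for Elane, 0.27 to 0.55 for Prtn3, 0.80 to 1.27 for Ctsg and 0.64 to 1.14 for Csf3r. For the other genes it spread more widely, 0.64 to 1.61 for Camp, 0.59 to 1.53 for Ltf, 0.50 to 1.81 for Ngp, 0.06 to 1.69 for S100a8 and 0.54 to 1.82 for S100a9. These 5 genes had their largest difference in replicate 3. Knockdown minus wild-type after LPS was negative in 3 of 3 numbers for 6 genes (Mpo, Elane, Prtn3, Ctsg, Ngp and Csf3r) and of mixed sign for Camp, Ltf, S100a8 and S100a9. No share over all genes is given here for that count. Some of the negative values were small, such as -0.008 for Prtn3 in replicate 3 and -0.12 for Ngp in replicate 3. For Camp the difference was -0.85, -0.98 and 0.24 in replicates 1, 2 and 3, and for Ltf 0.26, -0.44 and 0.31.

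**Figure D4:**
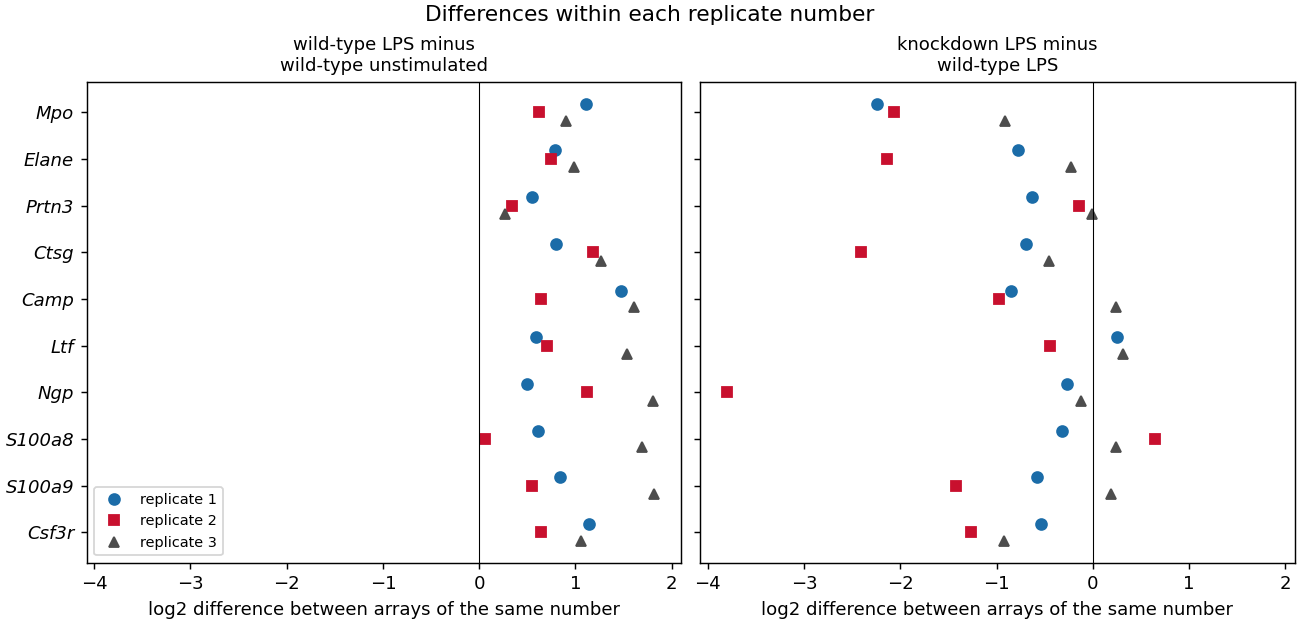
Log2 differences (x axis) between arrays of the same replicate number for the 10 genes (rows), as wild-type LPS minus unstimulated (left panel) and knockdown LPS minus wild-type LPS (right panel). Each point is 1 pair of arrays. All 30 differences in the left panel are above 0, and Ngp in replicate 2 has the lowest value in the right panel, -3.80.

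Genes with the most similar profiles were found by the root mean square difference (RMS) between centred log2 values over the 9 arrays, as a description, for the 9 of the 10 genes that spanned at least 1 log2 unit (Prtn3 did not). Elane and Ctsg were each other's nearest gene (RMS 0.22). For Mpo the nearest were Scin (0.31), Gnb4 (0.44) and Gata2 (0.45), and for Csf3r they were Tnfrsf14 (0.17), Ninj1 (0.18) and Tubb1 (0.21). The replicate-tracking genes other than Camp had each other nearest, or Stfa2, Olfm4 and Cd177. S100a9 had Stfa2 (0.38), Ltf (0.40) and Ngp (0.61), and Ltf had S100a9 (0.40), Stfa2 (0.54) and S100a8 (0.66). Ngp had S100a9 (0.61), Stfa2 (0.69) and Ltf (0.88), and S100a8 had Olfm4 (0.44), Cd177 (0.46) and Camp (0.46). For Camp the nearest were Ankrd22 (0.31), Cd177 (0.33) and St3gal6 (0.44). Stfa2 encodes a stefin, a cysteine protease inhibitor, Olfm4 a specific granule glycoprotein and Cd177 a neutrophil surface protein.

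Among 30 granule proteins and related products outside the 10 genes, 3 rose and 0 fell after LPS in wild-type cells, with a median difference of 0.34. For this and the later lists, 3.99% of all genes rose and 6.86% fell in that comparison (5.19% and 9.57% in the paired fit). Between knockdown and wild-type after LPS 0.762% of all genes changed (2.75% in the paired fit), and before adjustment 7.32% were higher and 5.79% lower. Knockdown LPS against unstimulated cells had 4.23% higher and 6.64% lower. Lcn2, which encodes the siderophore-binding protein lipocalin 2, had 13.82, 13.61 and 13.95 in wild-type LPS cells and 12.53, 13.11 and 11.99 in unstimulated cells, a rise of 1.25 (SE 0.26, limma adjusted p = 0.0198). Gca, the calcium-binding protein grancalcin, rose by 1.23 (SE 0.12) and Wfdc21 by 1.82 (SE 0.24). The Lcn2 call was lost without wild-type LPS replicate 1 or 3 or unstimulated replicate 1 (adjusted p up to 0.0828), while those of Gca and Wfdc21 held in all 9 fits that left out 1 array. Between knockdown and wild-type after LPS, 0 of the 30 changed by limma's adjusted test (median -0.12), while p before adjustment was under 0.05 for 1 higher and 6 lower genes, and in the paired fit 1 did, Itgam, which was lower. Knockdown LPS against unstimulated cells had 4 higher and 3 lower, among them Gca (1.45), Wfdc21 (1.98), Itgam (-0.82) and Mmp8 (-0.37), of which Itgam and Mmp8 lost their calls in 3 of the 9 fits that left out 1 array each (adjusted p up to 0.0676 and 0.0752).

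The replicate number held over 50% of the variation for 8 of these 30 genes (26.7%), and the array numbered 2 was lowest in all 3 groups for 9 (30%). Pglyrp1, a peptidoglycan-binding protein of granules, had a number share of 83.2%, Fcnb (ficolin B) 82.7% and Stfa2 67.9%. Stfa2 had 11.23, 7.04 and 11.11 in knockdown LPS cells, 11.60, 8.89 and 10.67 in wild-type LPS cells, and 10.45, 7.80 and 8.18 in unstimulated cells. Orm1, which encodes an acute phase glycoprotein, had a share of 90.4% in the other direction, with 9.25, 10.59 and 8.37 in knockdown LPS cells, 9.29, 11.05 and 9.29 in wild-type LPS cells, and 8.85, 11.34 and 8.36 in unstimulated cells. Plac8 was also highest on the arrays numbered 2 (share 76.1%), and Lcn2 and Mmp8 had shares of 0.51% and 0.08%. None of the 30 passed the F test of the number.

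Of 13 measured genes for granule protease processing and inhibition, 3 of them among the 10 genes, 2 rose after LPS in wild-type cells, Serpinb2 by 1.67 (SE 0.33) and Timp1 by 2.11 (SE 0.55). The paired fit had 2 higher and 1 lower for that comparison. The Serpinb2 call was lost without wild-type LPS replicate 1 or 3 or unstimulated replicate 3 (adjusted p up to 0.0675), and the Timp1 call in 7 of the 9 fits that left out 1 array (up to 0.145). In the knockdown against wild-type cells after LPS 0 of the 13 changed by limma's adjusted test, while p before adjustment was under 0.05 for 1 higher and 5 lower genes. In the paired fit Timp2 alone passed (-1.75).

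Of 18 measured genes of the mature neutrophil surface and migration, 5 rose and 1 fell after LPS in wild-type cells (6 rose and 3 fell in the paired fit). Ccrl2, an atypical receptor for chemerin, rose by 3.25 (SE 0.20), Clec4e, a C-type lectin that senses mycobacterial glycolipid, by 1.45 (SE 0.26) and Ptafr, the receptor for platelet-activating factor, by 0.47 (SE 0.08), and Ceacam1 fell by 0.37 (SE 0.07). The Clec4e call was lost without replicate 3 of wild-type LPS or of unstimulated cells (adjusted p up to 0.055). The knockdown after LPS differed from wild-type cells in 0 of the 18 genes by limma's adjusted test (p before adjustment under 0.05 for 1 higher and 2 lower genes), and 1 did in the paired fit (Il1r2, the decoy receptor for interleukin 1, -1.73). Il1r2 was also the list's 1 gene that passed the F test of the replicate number (adjusted p = 0.0424), and it was lowest on the arrays numbered 2.

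Of 16 transcription factors of granulocyte development, 3 fell after LPS in wild-type cells and 0 rose (3 fell and 2 rose in the paired fit). Cebpa, the factor that starts the granulocyte programme, fell by 0.95 (SE 0.25, limma adjusted p = 0.0437), Runx1 by 0.89 (SE 0.13) and Rara, the retinoic acid receptor of promyelocyte differentiation, by 0.81 (SE 0.07). The Cebpa call held in 1 of the 9 fits that left out 1 array (adjusted p up to 0.134), those of Runx1 and Rara in all 9. Between knockdown and wild-type after LPS 0 of the 16 changed by limma's adjusted test (p before adjustment under 0.05 for 3 lower genes), and 2 fell in the paired fit, Irf8 by 0.91 and Gata2 by 0.87.

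Of 19 genes of the G-CSF and related cytokine axis, Csf3r among them, 5 rose and 1 fell after LPS in wild-type cells (7 rose and 3 fell in the paired fit). Il6 rose by 7.18 (SE 0.39), Socs3, a feedback inhibitor of the G-CSF receptor, by 1.67 (SE 0.20) and Jak2 by 1.43 (SE 0.13), while Il6ra fell by 1.24 (SE 0.16), and these 4 calls held in all 9 fits that left out 1 array. Csf3, which encodes G-CSF itself, had log2 values of 9.62, 7.68 and 10.54 in knockdown LPS cells, 9.97, 8.50 and 10.55 in wild-type LPS cells, and 6.91, 7.25 and 7.28 in unstimulated cells. Its arrays numbered 2 were the lowest of both LPS groups but not of the unstimulated group. Wild-type LPS minus unstimulated was 2.53 for Csf3 (SE 0.73, limma adjusted p = 0.0629), and it passed in the paired fit (adjusted p = 0.0187). Between knockdown and wild-type after LPS 0 of the 19 changed by limma's adjusted test, and 2 were lower in the paired fit (Il6st, -0.93, and Kit, -1.73). Before adjustment p was under 0.05 for 10 lower genes (Csf3r among them) and 0 higher ones, against 5.79% of all genes lower and 7.32% higher. Csf3 differed by -0.39 (SE 0.73, adjusted p = 0.853).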

How the data were processed

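RNA from 9 dendritic cell cultures, 3 per group, had been hybridised to Affymetrix mouse gene arrays. Per the submitters' processing notes, the authors deposited log2 values from RMA, a method that corrects background, normalizes arrays to each other and summarises each probe set; its version is not given in the sources used here. They were used without further normalization. Arrays have no read depth, and their number limits the precision.

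Of 35556 probe sets, 21789 named a single gene in the platform's gene table, and 21698 of these were found in RefSeq's genes for assembly GRCm38.p6, the other 91 keeping the array's own symbol. A gene's value was that of its probe set with the highest mean, which gave 19938 genes. The 10 genes had 1 probe set each.

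Group means were modelled with limma 3.58.1 (lmFit and eBayes, R 4.3.3) on all 9 arrays. Two-sided p-values over the 19938 genes received the Benjamini-Hochberg adjustment, with 0.05 as the threshold for a change. SE denotes the model's standard error. On simulated data of the same size the wild-type LPS comparison recovered 81% of 100 genes changed by 1 log2 unit and 98% of 100 changed by 2, with 8 false calls. The changed genes were drawn at random, and the simulated noise held no effect of the replicate number. These shares therefore do not apply to genes of wide spread such as Camp, Ltf, Ngp, S100a8 and S100a9 (SE 0.75 to 1.50).

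The labels call the arrays biological replicates numbered 1 to 3 in each group. Deviations from the group means correlated by 0.14 to 0.48 for the 9 same-numbered pairs and by -0.41 to 0.25 for the 18 other pairs. The reported model did not pair the arrays by number, and the paired fit was an alternative to it. The paired fit has the number as a block, and its value is printed where it changes a call.

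The 10 genes, the gene lists and the cell type markers were chosen with earlier results of these data known. The rule named the 10 genes, Kdm4d, up to 4 changed genes per list with the smallest p, and the 3 nearest profiles of each of the 10 that spanned 1 log2 unit. Other genes, the F test of the number, the count of arrays numbered 2, the motif letters and the fit without the arrays numbered 2 were chosen after values or sequences were seen. Promoter sequences are RefSeq's, from the same assembly. Alternatives were the block, each array left out, quantile normalization, median centring, a filter on dim genes, all probe sets, another choice of probe set, a trended robust prior, and a fit of only the groups compared.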

Additional observations from a re-analysis of the deposited data

How the results depend on the processing

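Of 180 values of the 10 genes per comparison (18 alternatives), 0 changed sign for wild-type LPS minus unstimulated, 11 for knockdown minus wild-type after LPS and 15 for knockdown LPS minus unstimulated. With the replicate block, knockdown minus wild-type after LPS had 1 of the 10 genes and 548 genes changed, and fitting only those 2 groups gave 33 genes, against 152 in the reported model. Leaving out the arrays numbered 2, chosen after seeing the data, gave 4909 changed genes for wild-type LPS minus unstimulated, 668 for knockdown minus wild-type after LPS with 1 of the 10 genes (Csf3r, -0.73, limma adjusted p = 0.04), and 3803 for knockdown LPS minus unstimulated, against 2164, 152 and 2166 in the reported model. It also turned S100a8 to -0.043 for knockdown minus wild-type after LPS, and Elane to 0.38, Ctsg to 0.46 and Ngp to 0.96 for knockdown LPS minus unstimulated. Leaving out 1 array at a time gave 0 to 1 of the 10 genes and 891 to 3424 genes for wild-type LPS minus unstimulated, 18 to 383 genes for knockdown minus wild-type after LPS, and 1054 to 2602 for knockdown LPS minus unstimulated, with 0 of the 10 genes in both comparisons with the knockdown. Differences that changed sign when 1 array was left out ranged, for knockdown minus wild-type after LPS, from -1.08 to 0.26 for Camp, -0.95 to 1.28 for Ltf, -2.41 to 0.48 for Ngp, -0.63 to 0.78 for S100a8 and -1.60 to 0.80 for S100a9. For knockdown LPS minus unstimulated they ranged from -0.51 to 0.29 for Elane, -0.44 to 0.29 for Ctsg, -1.27 to 1.62 for Ngp, -0.31 to 1.87 for S100a9 and -0.13 to 0.26 for Csf3r. For wild-type LPS minus unstimulated, where no sign changed, leaving out 1 array still gave 0.07 to 1.94 for Ltf, 0.20 to 1.61 for S100a8, 0.30 to 2.06 for S100a9, 0.48 to 1.91 for Ngp, 0.72 to 1.80 for Camp and 0.54 to 1.21 for Mpo. The cause of these changes was not tested. The replicate block changed the call of Mpo alone among the 10 genes, and quantile normalization and median centring changed no sign among them.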

Other observations

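Of 16 S100 family genes, S100a8 and S100a9 included, 0 rose and 1 fell after LPS in wild-type cells (S100a13, by 0.34, SE 0.08), a call lost in 5 of the 9 fits that left out 1 array (limma adjusted p up to 0.107). Knockdown LPS cells were lower than unstimulated wild-type cells in S100a4 (-1.43, SE 0.28) and S100a6 (-0.80, SE 0.12), and the S100a4 call was lost without unstimulated replicate 1 or 3 (adjusted p up to 0.0631). In knockdown against wild-type cells after LPS, 0 of the 16 changed by limma's adjusted test without pairing (p before adjustment under 0.05 for 1 higher and 2 lower genes), and in the paired fit S100a1 was higher and S100a6 lower. The array numbered 2 was lowest in all 3 groups for 3 of the 14 S100 genes other than S100a8 and S100a9, and the replicate number held over 50% of the variation for 0 of these 14.

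Of 10 measured receptors for granule proteins and calprotectin, 2 rose after LPS in wild-type cells, the LPS co-receptor Cd14 by 2.38 (SE 0.36) and the S100A8/A9-binding lectin Cd69 by 2.70 (SE 0.27), and the ATP-gated channel P2rx7 fell by 0.75 (SE 0.14). The P2rx7 call was lost without wild-type LPS replicate 1 or 3 or unstimulated replicate 3 (limma adjusted p up to 0.0619). Between knockdown and wild-type after LPS, 0 of the 10 changed by limma's adjusted test, and 2 were lower at an unadjusted p under 0.05. In the paired fit 1 passed, Itgam, which was lower.

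Knockdown LPS minus unstimulated cells had 5 genes higher and 2 lower among the 18 of the neutrophil surface, and 3 higher and 6 lower among the 19 of the G-CSF axis. In the G-CSF axis Il6 (7.01), Il6ra (-1.70) and Kit, the SCF receptor (-2.76), passed the test, and all 3 calls held in the 9 fits that left out 1 array. Among the transcription factors Cebpb was higher (0.96, SE 0.18), and Runx1 (-0.96), Rara (-0.66) and Irf8 (-1.12) were lower. The Cebpb call was lost without unstimulated replicate 1 or 3 or knockdown replicate 3 (limma adjusted p up to 0.0527).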
